A study of Bos taurus with 8 samples.

Results

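The amino acid transporter families are the solute carrier (SLC) proteins that move amino acids and related small molecules across the plasma membrane and the membranes of organelles. Genes were chosen by symbol in the probe annotation of the array, as all members of families SLC1, SLC3, SLC6, SLC7, SLC36, SLC38 and SLC43, whatever their expression. This gave 43 of the 12552 named genes, with 89 of the 43653 gene probes. The rule also matched SLC7A6OS, which is named for its place opposite SLC7A6 and encodes a nuclear import factor and no carrier. It was set aside, which left 42 carrier genes with 87 probes. Not all of them carry amino acids: in other mammals SLC6A2 and SLC6A4 take up noradrenaline and serotonin, SLC6A12 and SLC6A13 carry GABA and betaine, and SLC43A3 carries purine nucleobases.

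Bos taurus embryos were produced from oocytes matured and fertilized in vitro and cultured in synthetic oviductal fluid. The 4 groups were morulae of day 5, intact blastocysts of day 9, and the inner cell mass (ICM) and trophectoderm (TE) that had been separated by hand with needles from blastocysts of day 9, each with 2 biological replicates of pooled embryos. Each sample was hybridized on an array of its own against a common pool of blastocyst RNA, which included RNA of the blastocyst samples themselves, and the dyes were swapped between replicates, so that replicate 1 of each group carried Cy3 and replicate 2 carried Cy5. By the methods of the study a dissected ICM keeps some TE cells. Levels are given throughout as the log2 ratio of sample over pool, so 0 is the level in the pool, and differences between groups are differences of these log2 ratios.

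On the arrays 90.3% to 94.8% of gene probes lay above the local background, and median intensities were 230 to 536 in the sample channel. The 2 morula arrays correlated at r = 0.915 over all gene probes, the TE arrays at 0.52 and the ICM arrays at 0.373, whereas the 2 blastocyst arrays, on which blastocyst RNA met its own pool, correlated at -0.546. The labels of the dissected samples were checked with cell type markers. All 3 ICM markers measured were higher in the ICM than in TE (NANOG 13.2-fold, SOX2 8.67-fold and PRDM14 2.52-fold), and 2 of 4 TE markers were higher in TE (GATA3 2.07-fold and PAG2 2.12-fold). The other 2 were not called, with log2 differences, ICM minus TE, of -0.63 for ASCL2 and 0.46, towards ICM, for TFAP2C. Of 5 markers of primitive endoderm, a part of the late ICM, none was called. They ranged from -1.07 for DAB2 (limma adjusted p = 0.0842) to 0.21 for GATA4. HNF4A (-0.03) and SOX17 (0.14) were read from dim probes, of mean intensity 252 and 234. PDGFRA, also on the list, was not measured. The paper, with a different choice of probe per gene, lists HNF4A and PDGFRA among the genes most raised in ICM over TE. The TE marker GATA3 stood at -0.39 and -0.91 in the ICM, at 0.31 and 0.48 in TE and at -1.93 and -2.54 in morulae. Hence a transcript of TE was present in the ICM samples at a level between morula and TE, and its part in the differences between ICM and TE was not tested. None of 4 sperm genes was called between blastocyst and morula. Of 8 genes of cumulus and granulosa cells 1 was (HSD3B, 14.9-fold higher in blastocyst), beside 10.2% of all named genes higher in blastocyst. HSD3B was also lower in ICM than in TE, at -0.87 (limma adjusted p = 0.0133), under 2-fold. Against morula, 1 sperm gene (PRM2, 2.57-fold) and 1 cumulus gene were higher in ICM, and 2 cumulus genes were higher in TE. The shares of all named genes were 9.97% and 11.1%. The groups are whole pieces of tissue, so fewer cells of a type and less RNA per cell cannot be told apart.

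Amino acid carriers are grouped by what drives them and whom they bind. The SLC1 family couples uptake of glutamate to sodium, or exchanges small neutral amino acids. The SLC7 light chains exchange amino acids only as a pair with a heavy chain, SLC3A1 or SLC3A2, which brings them to the cell surface, while the SLC7 cationic carriers work alone on arginine, lysine and ornithine. SLC6 carriers use sodium and chloride, SLC36 carriers use protons, and SLC38 carriers move glutamine, alanine and other neutral amino acids with sodium. SLC43 holds facilitators of large neutral amino acids and nucleobases. Preimplantation embryos take up amino acids from the fluid around them for protein synthesis, as fuel and as osmolytes.

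Calls required an adjusted p under 0.05 in limma together with a difference of at least 2-fold, read from the probe of highest intensity of each gene. To see how the carriers changed from morula to blastocyst, these groups were compared first. Of the 42 carriers, 11 (26.2%) were higher in blastocyst, beside 10.2% of all named genes, and 3 (7.14%) were higher in morula, beside 7.15% of all named genes. The other 28 were not called. In either direction 33.3% of the carriers and 17.4% of all named genes were called. Without the fold minimum 18 of the 42 carriers passed, 13 higher in blastocyst and 5 higher in morula, beside 39.9% of all named genes. The median log2 difference, blastocyst minus morula, was 0.17 over the carriers and 0.04 over all named genes. The largest differences were those of SLC7A4 (10.4-fold), SLC7A7 (9.97-fold), SLC6A20 (6.61-fold), SLC43A3 (6.56-fold) and SLC38A2 (5.52-fold) towards blastocyst, and that of SLC1A5 (8.73-fold) towards morula.

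**Figure D1:**
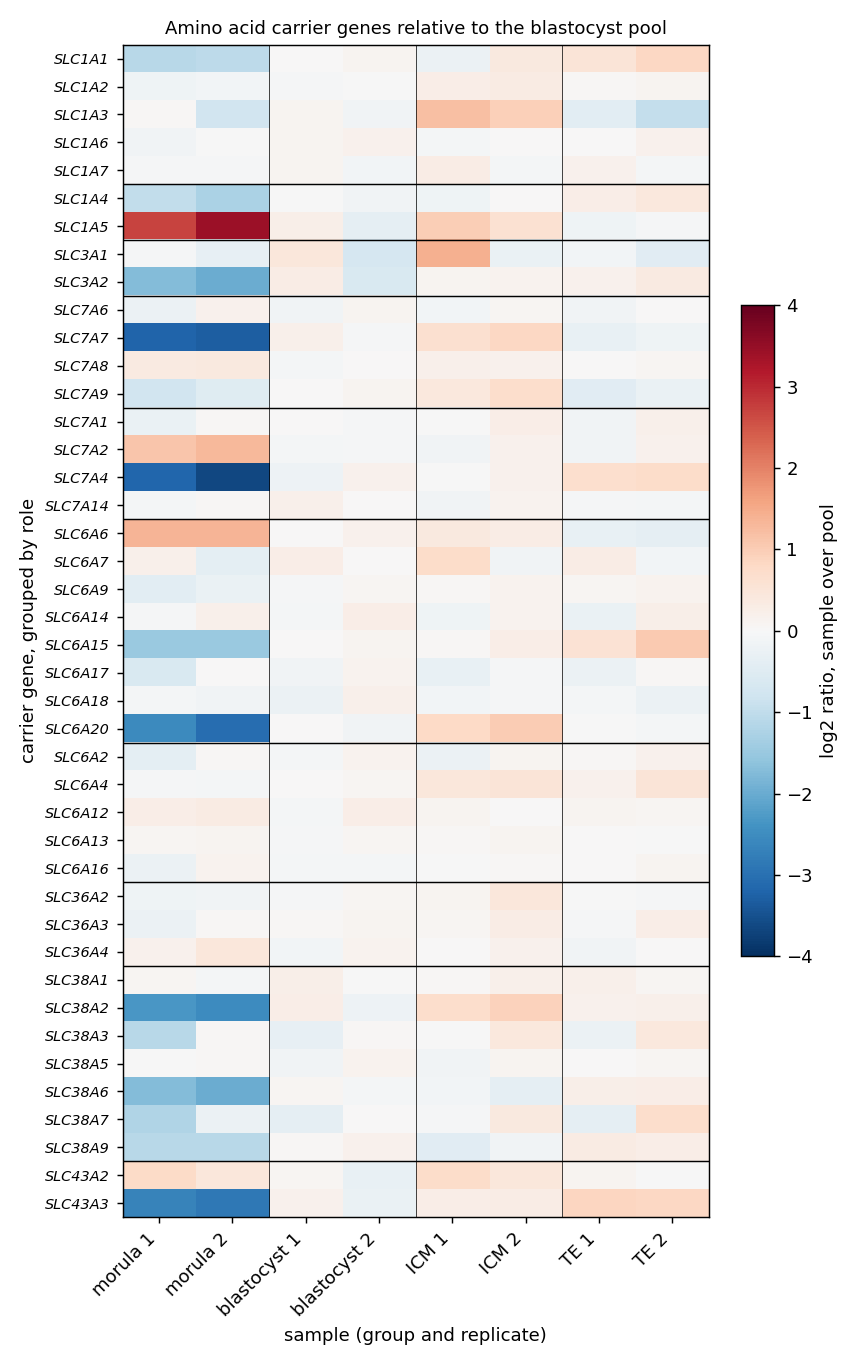
Log2 ratio of sample over blastocyst pool (colour) for the 42 carriers (rows, by role, brightest probe) in the 8 samples (columns). The 2 morula columns hold the strongest colours, with SLC7A4 at -3.16 and -3.63 and SLC1A5 at 2.71 and 3.41, while the blastocyst columns lie near 0.

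Among the SLC1 family, both carriers of small neutral amino acids were called between morula and blastocyst by their brightest probes, in opposite directions. SLC1A5, an exchanger of glutamine, alanine, serine and cysteine, had log2 ratios of 2.71 and 3.41 in morula, 0.22 and -0.36 in blastocyst, 0.98 and 0.61 in ICM and -0.17 and -0.06 in TE. The morula samples lay far above all others. Both ICM samples lay above both TE samples, but that difference of 0.91 ± 0.29 did not pass (limma adjusted p = 0.187). The difference, blastocyst minus morula, was -3.13 ± 0.29 (SE, n = 2 per group, limma adjusted p = 0.00057). It was measured by a single probe. SLC1A4, its relative for serine, alanine and cysteine, had log2 ratios of -0.98 and -1.28 in morula, -0.03 and -0.14 in blastocyst, -0.18 and 0.03 in ICM and 0.25 and 0.43 in TE. Here the morula samples were the lowest and the TE samples the highest. The difference was 1.04 ± 0.15 (limma adjusted p = 0.00292), just past the 2-fold minimum. It fell short of 2-fold without morula replicate 2 (0.85) or blastocyst replicate 1 (0.97). The other SLC1A4 probes, of mean intensity 145.1 and 105.8, gave -0.10 ± 0.15 and -0.52 ± 0.17, which did not pass (limma adjusted p = 0.715 and 0.0624). The increase of SLC1A4 thus rested on its brightest probe.

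Of the 5 glutamate carriers of SLC1, 1 was higher in blastocyst and 4 were not called. SLC1A1, which takes up glutamate, aspartate and cysteine, had log2 ratios of -1.12 and -1.05 in morula, 0.01 and 0.11 in blastocyst, -0.24 and 0.40 in ICM and 0.50 and 0.84 in TE. Morula samples were the lowest and TE samples the highest, without overlap. The brightest probe gave a difference of 1.14 ± 0.16 (limma adjusted p = 0.00252), but its other probe, of mean intensity 424, gave -0.68 ± 0.15 (limma adjusted p = 0.0164), so that the direction for SLC1A1 depended on the probe. Without morula replicate 2 the brightest probe gave 1.00, at the edge of 2-fold, and was not called. The remaining glutamate carriers had log2 differences, blastocyst minus morula, of 0.06 for SLC1A7, 0.11 for SLC1A2, 0.21 for SLC1A6 and 0.35 for SLC1A3, none of which passed.

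The heavy chain SLC3A2, partner of SLC7A6, SLC7A7 and SLC7A8, was higher in blastocyst. Its log2 ratios were -1.74 and -1.98 in morula, 0.31 and -0.60 in blastocyst, 0.12 and 0.14 in ICM and 0.17 and 0.37 in TE. Both morula samples lay below the other 6 samples, though the blastocyst replicates were wide apart. The difference was 1.72 ± 0.26 (3.29-fold, limma adjusted p = 0.0034). SLC3A1, the heavy chain that pairs with SLC7A9, had log2 ratios of -0.04 and -0.33 in morula, 0.45 and -0.67 in blastocyst, 1.43 and -0.26 in ICM and -0.10 and -0.45 in TE. Its samples overlapped in every group, and the difference of 0.07 ± 0.34 did not pass (limma adjusted p = 0.909).

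Of the 4 light chains, 1 was called. SLC7A7, which in a pair with SLC3A2 exchanges cationic for neutral amino acids with sodium, had log2 ratios of -3.20 and -3.29 in morula, 0.20 and -0.05 in blastocyst, 0.64 and 0.83 in ICM and -0.30 and -0.18 in TE. The order was morula lowest, then TE, blastocyst and ICM, with no overlap between any of the 4 groups. The difference between blastocyst and morula was 3.32 ± 0.13 (limma adjusted p = 4.39e-05). A second SLC7A7 probe, of mean intensity 1951, gave 0.37 ± 0.14, which did not pass (limma adjusted p = 0.104). SLC7A9, a light chain for cystine and cationic amino acids, had a difference of 0.69 ± 0.10 (limma adjusted p = 0.0031) and SLC7A8, a light chain for neutral amino acids, had -0.40 ± 0.09 (limma adjusted p = 0.016), both under 2-fold. SLC7A6 was at 0.02 ± 0.10 by its brightest probe, of mean intensity 360.0 and not above background on every array, while other SLC7A6 probes gave -0.89 ± 0.10 (limma adjusted p = 0.00109) and -0.62 ± 0.17 (limma adjusted p = 0.0385), both under 2-fold.

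The cationic carriers and their relatives held the steepest increase of all carriers. SLC7A4 is a relative of the cationic carriers whose own substrate is uncertain. Its log2 ratios were -3.16 and -3.63 in morula, -0.19 and 0.16 in blastocyst, -0.03 and 0.18 in ICM and 0.66 and 0.72 in TE. Morula was lowest, TE highest, and ICM and blastocyst overlapped. The difference was 3.38 ± 0.20 (limma adjusted p = 0.000123), while a second probe of mean intensity 271.3 gave 0.12 ± 0.09 (limma adjusted p = 0.424). SLC7A2, a carrier of arginine, lysine and ornithine, went the other way, with log2 ratios of 1.11 and 1.30 in morula, -0.07 and -0.06 in blastocyst, -0.14 and 0.18 in ICM and -0.15 and 0.16 in TE. Only the morula samples stood apart. The difference of -1.27 ± 0.11 (2.41-fold, limma adjusted p = 0.00044) came from a single probe of mean intensity 207.8, and with background correction it was -0.67 and was not called (limma adjusted p = 0.0576). Neither SLC7A1 (0.09 ± 0.13), the widespread arginine carrier, nor SLC7A14 (0.11 ± 0.13) passed.

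Of the 8 SLC6 carriers of amino acids or taurine, 2 were higher in blastocyst and 1 in morula. SLC6A20, a carrier of proline and other imino acids, had log2 ratios of -2.55 and -3.05 in morula, 0.00 and -0.14 in blastocyst, 0.80 and 1.02 in ICM and -0.02 and -0.07 in TE. It was lowest in morula and highest in ICM, while blastocyst and TE overlapped. The difference was 2.72 ± 0.17 (limma adjusted p = 0.000146). SLC6A15, a carrier of branched-chain amino acids and proline, had log2 ratios of -1.5 in both morula samples, 0.02 and 0.10 in blastocyst, 0.05 and 0.27 in ICM and 0.59 and 1.06 in TE. TE samples were the highest and morula samples the lowest, and only 1 of the 2 arrays lay above background in each of these groups. The difference was 1.55 ± 0.13 (2.94-fold, limma adjusted p = 0.000414), and the second probe gave 1.29 ± 0.25 (limma adjusted p = 0.00955). With background correction the SLC6A15 difference was 1.57 but was not called (limma adjusted p = 0.178).

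SLC6A6 takes up taurine, an osmolyte of the oviduct fluid. Its log2 ratios were 1.36 in both morula samples, 0.01 and 0.16 in blastocyst, 0.39 and 0.30 in ICM and -0.29 and -0.35 in TE, a descending order of morula, ICM, blastocyst and TE with no overlap. The difference, blastocyst minus morula, was -1.27 ± 0.10 (2.42-fold, limma adjusted p = 0.000307). SLC6A9, the glycine carrier through which mouse embryos regulate cell volume, was called by a probe other than its brightest. The brightest of its 4 probes, of mean intensity 3382, gave 0.35 ± 0.09 (limma adjusted p = 0.0265), and a probe of mean intensity 381.3 gave 1.78 ± 0.30 (3.43-fold, limma adjusted p = 0.00533), with log2 ratios of -1.95 and -1.66 in morula and 0.34 and -0.40 in blastocyst. SLC6A18, a carrier of neutral amino acids in mouse kidney, was at 0.08 ± 0.15. SLC6A14 was at 0.02 ± 0.10 and SLC6A17 at 0.30 ± 0.12, and neither was called. The proline carrier SLC6A7 was at background in both morula samples and above it in both blastocyst and TE samples, but its intensity in those was too low for any fold to be given. The 5 SLC6 members of other substrates, which are SLC6A2, SLC6A4, SLC6A12, SLC6A13 and the orphan SLC6A16, lay between -0.20 and 0.20, and none was called.

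**Figure D2:**
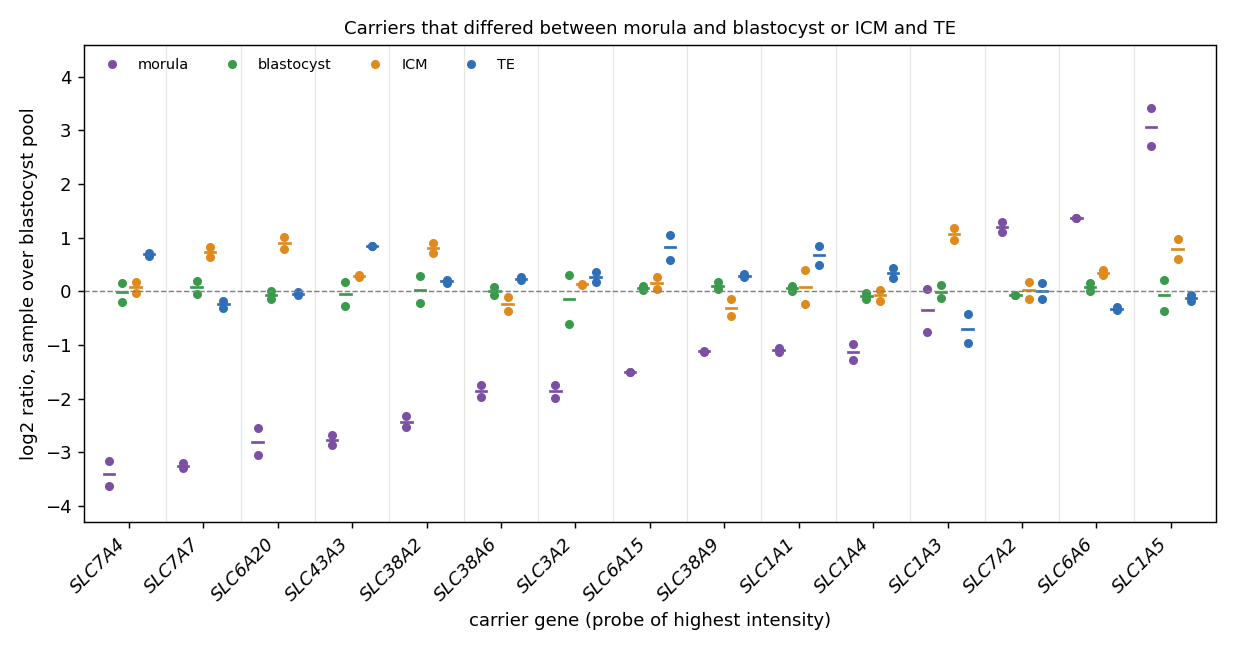
Log2 ratio of sample over blastocyst pool for the 15 carriers called between blastocyst and morula or between ICM and TE, with a point per sample, a bar at each group mean of 2 samples, and colours for the 4 groups. Morula points lie below the rest for the genes on the left, down to -3.63 for SLC7A4, and above it for SLC7A2, SLC6A6 and SLC1A5 on the right, and SLC1A3 is the gene with ICM and TE furthest apart.

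SLC38 held 3 called genes of 7, all higher in blastocyst. SLC38A2, which takes up alanine, glutamine and other small neutral amino acids, had log2 ratios of -2.33 and -2.53 in morula, 0.28 and -0.21 in blastocyst, 0.71 and 0.91 in ICM and 0.16 and 0.21 in TE. Morula was lowest and ICM highest. The difference was 2.46 ± 0.17 (limma adjusted p = 0.000206). Its other probes all pointed to blastocyst, with a log2 difference of 2.19 at mean intensity 5363, 0.74 at 4353, 0.88 at 187.3 and 0.36 at 174.7.

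SLC38A6, a less studied member of the family, had log2 ratios of -1.74 and -1.97 in morula, 0.09 and -0.07 in blastocyst, -0.11 and -0.37 in ICM and 0.22 and 0.26 in TE. The 4 groups kept apart in the order morula, ICM, blastocyst, TE, and blastocyst exceeded morula by 1.87 ± 0.11 (3.65-fold, limma adjusted p = 0.000127). SLC38A9 sits in the lysosome membrane, where it senses arginine for the kinase complex mTORC1. It had log2 ratios of -1.12 and -1.11 in morula, 0.04 and 0.18 in blastocyst, -0.45 and -0.15 in ICM and 0.32 and 0.27 in TE, in the same order of groups. Blastocyst exceeded morula by 1.23 ± 0.12 (2.34-fold, limma adjusted p = 0.000596), and a second probe gave 1.25 ± 0.15 (limma adjusted p = 0.00145). By the second probe, of mean intensity 1398, ICM (0.03 and -0.39) and blastocyst (-0.43 and -0.31) overlapped, so the order of these groups depended on the probe. Neither SLC38A7, a lysosomal glutamine carrier (0.55 ± 0.19), nor SLC38A5, a glutamine carrier coupled to protons (-0.02 ± 0.10), passed. SLC38A1 (0.11 ± 0.12) and SLC38A3 (0.40 ± 0.19) did not either.

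In SLC43 the members again differed. SLC43A3 had log2 ratios of -2.67 and -2.86 in morula, 0.18 and -0.28 in blastocyst, 0.27 and 0.31 in ICM and 0.85 and 0.84 in TE. The order was morula, blastocyst, ICM, TE, without overlap. The difference between blastocyst and morula was 2.71 ± 0.14 (limma adjusted p = 8.92e-05), and a second probe of mean intensity 180.9 gave -0.17 ± 0.12. SLC43A2, a facilitator of leucine and other large neutral amino acids, had a difference of -0.71 ± 0.10 (limma adjusted p = 0.00258), short of 2-fold, with log2 ratios of 0.75 and 0.46 in morula, 0.08 and -0.30 in blastocyst, 0.72 and 0.44 in ICM and 0.12 and -0.02 in TE. Morula and ICM overlapped, above blastocyst and TE. None of the 3 SLC36 genes was called, with log2 differences from -0.30 for SLC36A4, a carrier of proline and tryptophan, to 0.16 for SLC36A2, a carrier of glycine and proline, and 0.17 for SLC36A3.

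Since a gene stood by its brightest probe, its other probes were examined. Of the 42 carriers 28 had several probes and 14 had a single probe. Of the called genes, 9 had several probes, and 3 of these (SLC38A2, SLC38A9 and SLC6A15) had another probe that passed the same way. No probe was called in the opposite direction. Where the other probe did not pass, it was of much lower intensity in SLC7A4, SLC43A3, SLC3A2 and SLC1A4, with means from 105.8 to 271.3 beside 3914 to 6995 for the brightest probe, while the second SLC7A7 probe was not close to background. The brightest probes of 36 carriers were above background on all 8 arrays and those of 6 were not. None reached the saturation limit, set at an intensity of 65000. The brightest SLC1A1 probe came close to it, at 64500 and 64300 in TE, and what this did to its ratios was not tested.

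**Figure D3:**
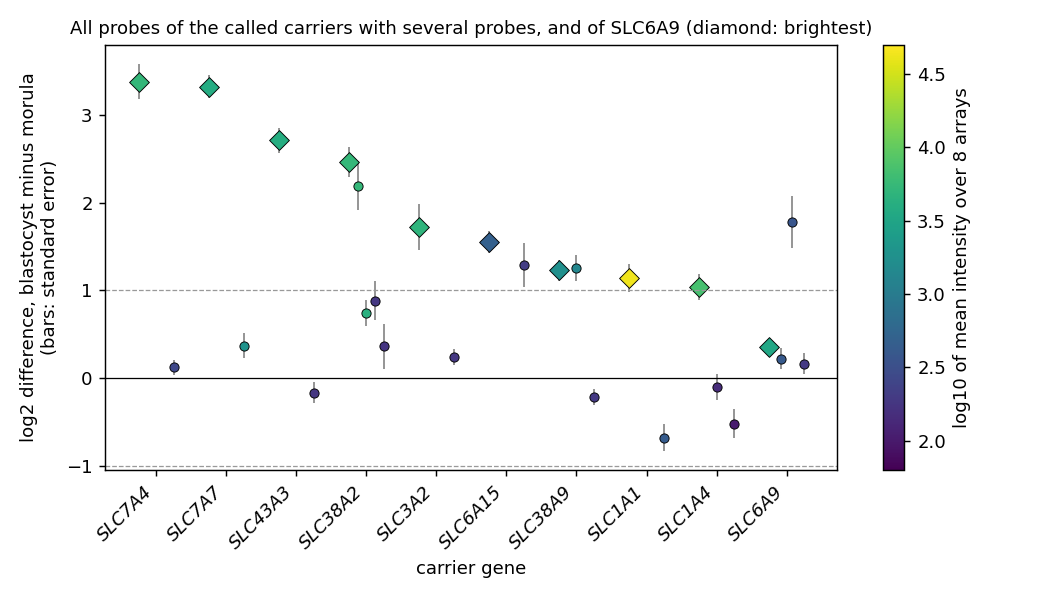
Log2 difference, blastocyst minus morula, with standard error, for every probe of the called carriers that have several probes and of SLC6A9, coloured by log10 of mean intensity over 8 arrays, with the brightest probe of each gene as a diamond. SLC38A2, SLC38A9 and SLC6A15 have another probe beyond the 2-fold line, and the second SLC1A1 probe lies at -0.68.

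To learn which carriers differ between the lineages of the blastocyst, ICM was compared with TE. SLC1A3, a glial-type carrier of glutamate and aspartate, was called higher in ICM, and it was the only call among the 42 carriers (2.38%, beside 1.33% of all named genes higher in ICM). None was called higher in TE, beside 0.231% of all named genes, and in either direction 1.56% of all named genes were called. At an unadjusted p under 0.05 in limma, 10 of the 42 carriers were higher in ICM, beside 10.4% of all named genes. By the same rule 7 of the 42 were higher in TE, beside 11.4%. The median log2 difference, ICM minus TE, was 0.06 over the carriers and 0.01 over all named genes.

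SLC1A3 had log2 ratios of 1.19 and 0.96 in ICM, -0.43 and -0.96 in TE, 0.12 and -0.13 in blastocyst and 0.05 and -0.76 in morula. Both ICM samples exceeded all other samples, and the replicates of morula and of TE were wide apart. The difference, ICM minus TE, was 1.77 ± 0.16 (3.42-fold, limma adjusted p = 0.00857). The second probe had log2 ratios of 1.65 and 1.09 in ICM and -1.17 and -1.54 in TE, a difference of 2.73 ± 0.26 (6.62-fold, limma adjusted p = 0.00981). The call was lost without ICM replicate 2, TE replicate 1 or TE replicate 2 (limma adjusted p = 0.0899, 0.0792 and 0.0794) and with background correction (0.0809), while the log2 difference stayed between 1.46 and 2.25 over all alternatives.

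A further 4 carriers passed the adjusted p in ICM against TE without reaching 2-fold, all higher in ICM. Hence 5 of the 42 carriers passed by p alone, beside 4.42% of all named genes. The further 4 were SLC7A7 with 0.98 ± 0.13 (limma adjusted p = 0.0231), SLC6A20 with 0.96 ± 0.17 (0.0449), SLC7A9 with 0.93 ± 0.10 (0.0133) and SLC6A6 with 0.67 ± 0.10 (0.03). The second SLC7A7 probe, of mean intensity 1951, gave 0.15 ± 0.14 and did not pass (limma adjusted p = 0.759). With background correction none of the 4 passed (limma adjusted p from 0.184 for SLC7A7 to 0.376 for SLC6A20). For SLC7A9 the log2 ratios were 0.41 and 0.70 in ICM, -0.46 and -0.28 in TE, 0.03 and 0.11 in blastocyst and -0.78 and -0.47 in morula. ICM was highest and TE close to morula. Its heavy chain SLC3A1 was at 0.86 ± 0.34 in ICM over TE, a difference carried by ICM replicate 1 that did not pass (limma adjusted p = 0.284), and the heavy chain SLC3A2 was at -0.14 ± 0.26. The carriers with the lowest differences, towards TE, were SLC6A15 with -0.66 ± 0.13 (limma adjusted p = 0.06), SLC7A4 with -0.61 ± 0.20 (0.187), SLC38A9 with -0.60 ± 0.12 (0.0553) and SLC1A1 with -0.59 ± 0.16 (0.123). None of these passed.

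**Figure D4:**
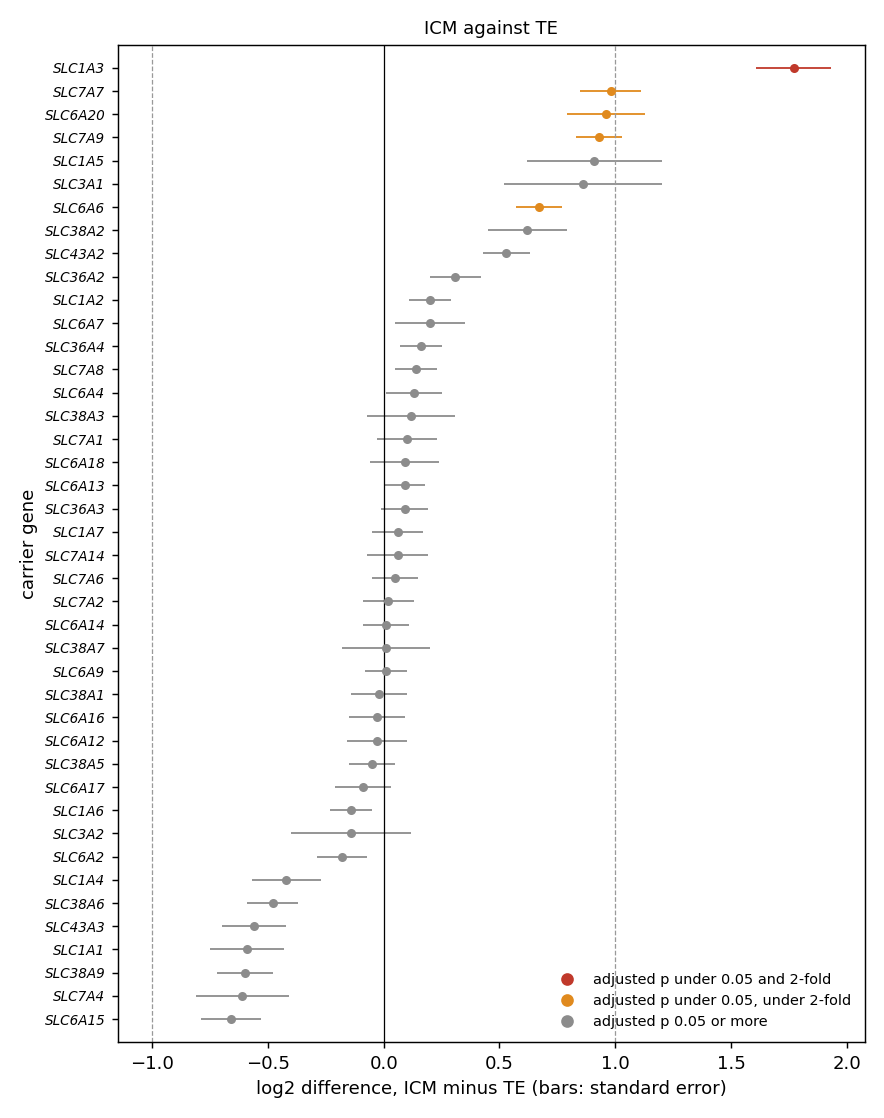
Log2 difference, ICM minus TE, with standard error for the 42 carriers by their brightest probe, sorted, with dashed lines at 2-fold. SLC1A3 at 1.77 lies beyond the line, SLC7A7, SLC6A20, SLC7A9 and SLC6A6 pass the adjusted p below it, and no carrier lies beyond 2-fold on the TE side.

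Morula was also compared with the dissected tissues, comparisons that share the morula samples with that against blastocyst. Against ICM 12 carriers (28.6%) were higher in ICM, beside 9.97% of all named genes, and 3 (7.14%) higher in morula, beside 6.72%. In either direction 35.7% of the carriers and 16.7% of all named genes were called. Against TE 11 (26.2%) were higher in TE, beside 11.1% of all named genes, and 3 (7.14%) higher in morula, beside 9.14%. In either direction these shares were 33.3% of the carriers and 20.3% of all named genes. Median centring in place of loess turned the split over all named genes, from 844 higher in morula and 1252 higher in ICM to 1455 and 981, and from 1147 higher in morula and 1396 higher in TE to 1503 and 1194, while the carriers were 3 and 11 in both comparisons. The median log2 difference, morula minus ICM, was -0.33 over the carriers and -0.06 over all named genes, and morula minus TE it was -0.18 and -0.03. The distance from morula was unequal between tissues for several genes. SLC7A7 lay 15.8-fold above morula in ICM and 8.02-fold in TE, and SLC6A20 13.1-fold and 6.73-fold. Conversely SLC7A4 lay 11.1-fold above morula in ICM and 16.9-fold in TE, SLC43A3 8.30-fold and 12.2-fold, and SLC6A15 3.15-fold and 5.00-fold. Only for SLC7A7 and SLC6A20 among these did the difference between ICM and TE itself pass the adjusted p by the brightest probe, as given above. The second probes, morula minus ICM and morula minus TE, gave -0.46 and -0.31 for SLC7A7 and -0.21 and -0.25 for SLC7A4. For SLC43A3 they gave 0.18 and 0.16, and none of these passed. The second SLC6A15 probe was called in both, at -1.04 and -1.36.

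SLC1A3 and SLC7A9 were called between morula and ICM, with log2 differences, morula minus ICM, of -1.43 ± 0.16 (2.70-fold, limma adjusted p = 0.00109) and -1.18 ± 0.10 (2.26-fold, limma adjusted p = 0.000436). Morula minus TE they stood at 0.34 ± 0.16 and -0.25 ± 0.10 and did not pass (limma adjusted p = 0.154 and 0.107). With background correction the log2 difference of SLC7A9 between morula and ICM was -0.68 and was not called (limma adjusted p = 0.0376). SLC38A9 was called between morula and TE (-1.41 ± 0.12, limma adjusted p = 0.000276), and between morula and ICM by its second probe, at -1.44 ± 0.15, but not by its brightest, at -0.81 ± 0.12. Of the genes higher in morula, SLC1A5 was 4.80-fold above ICM and 9.03-fold above TE, SLC6A6 2.02-fold and 3.20-fold, and SLC7A2 2.28-fold and 2.30-fold. Without ICM replicate 2 the log2 difference of SLC6A6 between morula and ICM was 0.96 and was no longer called, and those of SLC1A1 and SLC1A4 were -0.92 and -0.91 and were not called either, nor was SLC1A4 without morula replicate 2 (-0.86). A probe of SLC7A6 other than the brightest was higher in morula than in ICM by 1.17 ± 0.10 (limma adjusted p = 0.000429). The SLC6A9 probe of mean intensity 381.3 was lower in morula, while its brightest was not called. Morula minus ICM it was at -1.85 ± 0.30 (limma adjusted p = 0.00457), and morula minus TE at -2.24 ± 0.30 (limma adjusted p = 0.00174).

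Intact blastocysts were last set against their parts. No carrier was called between ICM and blastocyst (0.104% of all named genes were) or between TE and blastocyst (0.0478% of all named genes). At an unadjusted p under 0.05 in limma, 11 of the 42 carriers were higher in ICM, beside 8.52% of all named genes. In blastocyst 1 of the 42 was higher, beside 7.73%. Between TE and blastocyst 6 of the 42 were higher in TE, beside 6.16%, and 3 of the 42 in blastocyst, beside 6.89%. For SLC1A3 the values were 1.08 ± 0.16 in ICM minus blastocyst (limma adjusted p = 0.0838) and -0.69 ± 0.16 in TE minus blastocyst (limma adjusted p = 0.248).

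Genes that act around the carriers were taken from lists of pathways, whose counts stand beside the 10.2% of all named genes higher in blastocyst and the 7.15% higher in morula. Of 9 partner proteins and regulators measured, 3 were higher in blastocyst than in morula and none lower. These were the ubiquitin ligases NEDD4L (11.1-fold) and NEDD4 (10.2-fold), which take carriers off the cell surface, and LGALS3 (11.5-fold), a lectin that binds the glycoprotein heavy chains. Of 31 genes of amino acid sensing by mTORC1, to which SLC38A9 reports, 4 were higher in blastocyst and 1 higher in morula, a share near that of all named genes. RPTOR, the substrate-binding subunit of mTORC1, was higher in blastocyst by 4.24-fold, the leucine sensor SESN2 by 3.52-fold, NPRL2 of the inhibitory GATOR complex by 3.44-fold and the lysosomal scaffold gene LAMTOR4, listed as C25H7orf59, by 2.36-fold, whereas SEH1L was 2.05-fold higher in morula. MTOR itself, at a log2 difference of 0.22, was not called. The median log2 difference, blastocyst minus morula, was 0.33 over the partner list and 0.22 over the mTORC1 list, beside 0.04 over all named genes.

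Of 34 enzymes of serine, glycine, glutamine, arginine and branched-chain amino acid metabolism, 13 were higher in blastocyst and 4 higher in morula. Those higher in blastocyst included BCAT1 (21.2-fold) and BCKDHB (11.7-fold), which break down branched-chain amino acids, MTHFD2 (10.9-fold) of the mitochondrial folate pathway and CTH (10.2-fold), which makes cysteine. The 4 higher in morula were GLDC (13.3-fold), AMT (7.54-fold) and GCSH (3.02-fold), which are parts of the glycine cleavage system, and TDH (11.7-fold), which begins the breakdown of threonine. GCAT, which takes the product of TDH on to glycine, was higher in blastocyst (3.88-fold). Of 12 genes of the amino acid response, which is the transcriptional answer to amino acid shortage, NUPR1 (5.36-fold), DDR1 (4.56-fold) and ASNS (4.20-fold) were higher in blastocyst, and DDIT4 (2.62-fold) and ATF3 (2.15-fold) were higher in morula. Of 16 cytosolic aminoacyl-tRNA synthetases, which load amino acids onto tRNA, 2 were higher in blastocyst, GARS (4.15-fold) and TARS (3.20-fold), and none was higher in morula, again near the share of all named genes. The median log2 difference over these lists, in the same order, was 0.39, 0.31 and -0.01. Between ICM and TE 2 of the 34 enzymes and 1 of the 12 amino acid response genes were called, all higher in ICM, beside 1.33% of all named genes. None of the 16 synthetases, the 31 mTORC1 genes or the 9 partner genes was called. The genes called were DDIT4 (2.68-fold) and the glutamate enzymes GLUD1 (2.36-fold) and GOT1 (2.13-fold), which interconvert glutamate with its keto acid and aspartate.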

How the data were processed

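RNA of bovine morulae, blastocysts, ICM and TE was measured on 8 two-colour arrays, 2 per group, in dye swap against a blastocyst pool. Spot intensities and local backgrounds were deposited by the authors as means, extracted with Imagene and not normalized. The authors also deposited a series matrix of normalized log2 ratios, sample over pool. It was used only as an alternative, and correlated with the ratios used here at r = 0.727 to 0.993. Loess was applied to the mean intensities of each array in R 4.3.3 with limma 3.58.1, without background subtraction and with control spots at weight 0. Group means and a term for dye, which equals the replicate number, were fitted to all 8 arrays (3 residual and 3.17 prior degrees of freedom), with Benjamini-Hochberg adjustment over 43653 gene probes in each of 6 comparisons. A gene stood by its probe of highest mean intensity, named from the platform annotation, and calls required an adjusted p under 0.05 and 2-fold. All 43 symbols were current in RefSeq. A probe lay above background if it exceeded the local background mean by 2 standard deviations.

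Members called in any pair of groups were named, as were members called only by another probe, members at background in a group, up to 2 uncalled members per family by intensity, and from each pathway list up to 4 called genes per comparison. The remaining members, and MTHFD2, CTH, AMT, GCSH, GCAT, SEH1L, MTOR and ATF3, were named after their values were seen. The members and lists were chosen with earlier results of these data known. The differences between replicates correlated across probes between all 6 pairs of groups (r = 0.201 to 0.486), so the replicate number was kept as a block. The p-values rest on the spread left within groups over all arrays once the replicate term was removed, combined with a prior. They do not measure the spread between the 2 samples of a group alone. The number of arrays limits the precision. The fit was tested on simulated data. The settings varied were the background (normexp, offset 50), median centring, quantile normalization of average intensities, the series matrix values, no replicate block, the upper 60% of intensity, each replicate left out, only the 4 arrays compared, averaging all probes per gene, and a 1.5-fold or no fold minimum. Figures were drawn with matplotlib 3.10.9.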

Additional observations from a re-analysis of the deposited data

How the results depend on the processing

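Direction was followed for the carriers that passed the adjusted p between morula and another group or between ICM and TE. Among these no direction reversed under any alternative. Several alternatives could not reverse it, since they leave the log2 difference unchanged. These were quantile normalization of average intensities, no replicate block, the upper 60% of intensity and only the 4 arrays compared. Leaving out a replicate of a group outside the comparison was another. Reading a gene from another single probe was not an alternative, and by its other probe SLC1A1 went the other way between blastocyst and morula. Other probes of SLC1A4 (-0.10 and -0.52), SLC38A9 (-0.22) and SLC43A3 (-0.17) also lay on the morula side, but did not pass. Of 11 carriers called higher in blastocyst than in morula, 7 were called when all probes per gene were averaged, 9 with background correction (SLC1A4 and SLC6A15 were not), and 9 to 11 with a replicate left out. SLC1A1 lost its call without morula replicate 2, with the series matrix values and with averaged probes, and SLC1A4 without morula replicate 2 or blastocyst replicate 1, with background correction, with median centring and with averaged probes. Of 3 carriers higher in morula, 1 was called with background correction (SLC6A6, at -0.99 and an adjusted p of 0.00671 in limma, and SLC7A2, at -0.67 and 0.0576, were not; the cause was not tested), 5 without a fold minimum, and 3 with each replicate left out. For ICM over TE, 1 carrier was called, 0 with background correction, 5 at 1.5-fold, 5 without a fold minimum, and 0 to 1 with a replicate left out. Without the replicate block the counts were the same, 11 and 3 for blastocyst against morula and 1 and 0 for ICM against TE. With background correction the share of all named genes called in either direction also fell. It went from 17.4% to 13.1% for blastocyst against morula and from 1.56% to 0.215% for ICM against TE. For morula it went from 16.7% to 12.4% against ICM and from 20.3% to 15.6% against TE. No such share was taken for averaged probes, left-out replicates or the 1.5-fold minimum. The counts for morula against ICM (15, and 14 to 16 with a replicate left out) and against TE (14, and 14 to 15) were not moved by over 1.5 times (10 and 12 with background correction, without SLC6A15 and SLC7A2 in either and without SLC1A4, SLC6A6 and SLC7A9 against ICM), and 0 stayed 0 against blastocyst. These 4 pairs were given alternatives after the data were seen. Median centring turned the split over all named genes from 1281 higher in blastocyst and 898 higher in morula to 1072 and 1261, and for ICM against TE from 167 and 29 to 146 and 78, while the carriers were 10 and 3, and 1 and 0. SLC7A2 was not tested in the upper 60% of intensity. Low intensity over background limits the carriers that were below background on some arrays.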
